A study of Mus musculus with 10 samples.

Results

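The genes described here are 40 genes that license replication origins, build and drive the replication fork, supply nucleotides or control entry into S phase. They were chosen by name for these roles and not by any measured value, but with earlier results of these data known. The other gene lists below were also chosen with those results known. All 40 were found among the 32903 genes with a transcript in the deposited table. RNA was sequenced from inguinal subcutaneous preadipocytes, the precursor cells of fat, of male mice labelled WT C57 BL6. There were 10 libraries: 5 of cells exposed to 2.5 µM BPS in DMSO, and 5 of cells exposed to DMSO alone. BPS is bisphenol S, an analogue of bisphenol A. The age of the mice, the passage of the cells, their density at harvest and the length of exposure are not given in the sources used here. Nothing in the labels says whether the 5 replicates were separate animals or separate dishes, so p-values measure only the spread between these libraries, which may be technical. Library numbers in the labels run through DMSO first and then BPS, so any effect of that order and the group cannot be told apart.

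A cell commits to division in G1. Cyclin D and cyclin E kinases inactivate the retinoblastoma family, and E2F transcription factors then switch on the genes for DNA replication. Origins are first licensed, when ORC, CDC6 and CDT1 load the MCM helicase, and later fired, when CDC45 and GINS join the helicase and polymerases follow. Preadipocytes in culture proliferate until they are confluent, and their exit from the cycle is part of the path to fat cells. Genes of mitosis peak later than these genes and are read from promoters with another element, the CHR (cell cycle genes homology region).

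The promoters of these genes carry the E2F element far more often than promoters at large, which is why a stretch of several is shown. Windows from 250 bases before to 50 bases after the start were available for 32 of the 40 genes (RefSeq, GRCm38.p6). The genes without a window were Mcm4, Gins1, Gins2, Gins4, Prim2, Pole, Rfc2 and Ccne2. The E2F element was searched on both strands as any of TTTCCCGC, TTTGGCGC, TTTGCCGC and TTTCGCGC. It was present in 13 of the 32 genes (40.6%), in 4.58% of the tested genes with a window, in 2.6% of all genes with a window and in 1 of 26 mitotic genes. The following stretches lie before the start of genes of origin licensing, with the E2F words, of either strand, in capitals and each read along the strand of its gene. In Mcm5 and in Mcm6 a pair of words overlap on opposite strands.
Orc1, chr4:108579411-108579450, plus strand: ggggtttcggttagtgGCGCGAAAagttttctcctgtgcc
Cdc6, chr11:98907997-98908036, plus strand: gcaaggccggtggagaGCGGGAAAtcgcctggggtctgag
Mcm5, chr8:75109340-75109383, plus strand: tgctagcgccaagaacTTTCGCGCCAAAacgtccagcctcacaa
Mcm6, chr1:128359788-128359831, minus strand: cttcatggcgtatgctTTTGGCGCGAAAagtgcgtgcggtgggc
Mcm7, chr5:138172025-138172064, minus strand: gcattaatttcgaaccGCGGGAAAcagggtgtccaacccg

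For contrast, the CHR element was searched on both strands as TTTGAA or TTTAAA. It was present in 22 of 26 mitotic genes with a window (84.6%), in 9 of the 32 replication genes (28.1%) and in 23.5% of tested genes with a window. The CCAAT box, searched on both strands as CCAAT, was present in 62.5% of the replication genes, 73.1% of the mitotic genes and 43.1% of the tested genes. Stretches with CHR words in capitals are shown for a pair of mitotic genes that fell under BPS.
Mki67, chr7:135716456-135716511, minus strand: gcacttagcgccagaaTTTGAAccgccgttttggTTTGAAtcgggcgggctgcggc
Top2a, chr11:99024347-99024384, minus strand: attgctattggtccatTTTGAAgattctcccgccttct
A match to these letters describes the window and does not show that a factor binds there.

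None of the 40 genes passed the threshold for a difference between BPS and DMSO. All 40 passed the filter on low counts. With edgeR's quasi-likelihood test and Benjamini-Hochberg adjustment over 14597 genes, 0 of the 40 rose and 0 fell, where 4.88% of all tested genes were called. By direction, 3.06% of all tested genes were called higher and 1.82% lower. At an unadjusted p under 0.05, 3 of the 40 passed in edgeR (Mcm2, Gins4 and Lig1, 1 higher and 2 lower), or 7.5% against 18.8% of all tested genes. The DESeq2 Wald test called 1 of the 40 (Lig1, adjusted p = 0.0432) and limma-voom called 0. When the libraries were scaled by their total alone, edgeR called 2 (Gins4, adjusted p = 0.0366, and Lig1, adjusted p = 0.0351). Over all tested genes these fits called 952 of 14596 (DESeq2), 695 of 14597 (limma-voom) and 728 of 14597 (scaled by total alone).

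The fitted differences were small in both directions. Log2 fold changes of BPS against DMSO ran from -0.08 in Lig1 to 0.10 in Mcm2, with a median of 0.004, and 22 lay above 0 and 18 below. Many signs are those of values next to 0: when libraries were scaled by their total alone, 10 of the 40 signs turned and the median was -0.011. The median absolute log2 fold change was 0.033, against 0.056 over all tested genes. The median standard error was 0.031, against 0.050 over all tested genes. A 95% interval of the log2 fold change lay inside -0.2 to 0.2 for 37 of the 40 genes, and inside -0.1 to 0.1 for 21. All 40 intervals lay inside a 1.5-fold change in either direction. The widest interval, -0.19 to 0.28, belonged to Cdc6, which had 108 to 162 counts per library, the fewest of the 40.

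**Figure D1:**
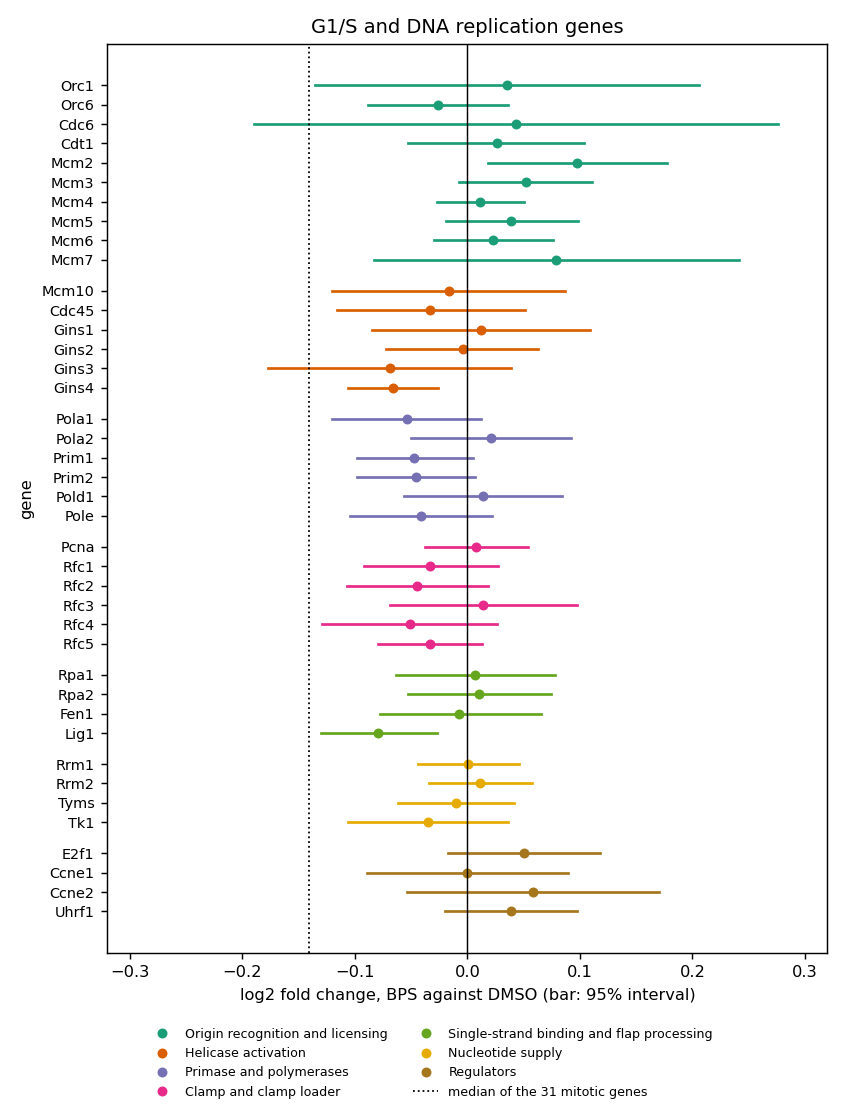
Log2 fold change of BPS against DMSO (horizontal axis) for each of the 40 genes (vertical axis), with bars for the 95% interval and colours for the role; the dotted line is the median of 31 mitotic genes, -0.14. The points lie between -0.08 and 0.10, and the intervals of Mcm2, Gins4 and Lig1 do not reach 0.

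Origin recognition and licensing genes were measured with 9 of 10 log2 fold changes above 0 and none called (median 0.04). Mcm2, a subunit of the hexameric MCM helicase, had the smallest p of this role. CPM here are counts per 1000000 counts of the tested genes, after TMM scaling of the libraries. For replicates 1 to 5 of each group, Mcm2 had 99.3, 101, 103, 96.1 and 104.5 CPM in DMSO and 100.8, 117, 108.8, 106.4 and 106.2 in BPS. BPS replicate 1 lay inside the DMSO range, so the groups overlapped, and BPS replicate 2 was the highest. The log2 fold change of Mcm2 was 0.10 (SE 0.04, 95% interval 0.018 to 0.177), with an adjusted p of 0.165 by edgeR. Without BPS replicate 2 it was 0.066, and without BPS replicate 1 it was 0.121 with an adjusted p of 0.068 by edgeR.

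The other MCM2-7 subunits had log2 fold changes of 0.05 (Mcm3), 0.01 (Mcm4), 0.04 (Mcm5), 0.02 (Mcm6) and 0.08 (Mcm7), with adjusted p between 0.335 and 0.798 by edgeR. Mcm3 stood at 108 ± 1.73 CPM with DMSO and 112 ± 4.7 with BPS (SD, 5 libraries each), and its 4 BPS values other than replicate 2 lay between 109 and 111.1 CPM. Mcm7 was singled out after its values were seen, because its BPS libraries split. It had 108.6, 111.5, 105.2, 105 and 113 CPM with DMSO and 106.3, 99.8, 105.1, 131.3 and 131.5 with BPS. BPS replicates 4 and 5 lay above every DMSO library and BPS replicates 1 to 3 did not. The SD of Mcm7 was 3.62 CPM among DMSO libraries and 15.3 among BPS libraries, and its 95% interval reached from -0.08 to 0.24.

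The factors that load the helicase also showed no called difference. Orc1 and Orc6, subunits of the origin recognition complex, had log2 fold changes of 0.04 (SE 0.08) and -0.03 (SE 0.03). Orc1 stood at 8.07 ± 0.736 CPM with DMSO and 8.27 ± 0.714 with BPS (SD, 5 libraries each). Cdc6, the ATPase that helps load MCM, stood at 3.73 ± 0.337 and 3.85 ± 0.545 CPM. Cdt1, its partner in loading, stood at 30.3 ± 1.26 and 30.9 ± 1.16 CPM. In each of these genes the difference was smaller than the SD of either group, apart from Orc6, where it lay between the SD of BPS (0.306 CPM) and that of DMSO (1.55 CPM).

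Among the 6 genes that activate the helicase, 5 log2 fold changes lay below 0 and none was called (median -0.025). Gins4, a subunit of the GINS complex, was the 1 gene of the 40 (2.5%) whose groups did not overlap, where 6.9% of all tested genes did not. It had 61.1, 61, 61.9, 62 and 60.8 CPM with DMSO and 58.5, 57.6, 59.6, 59.6 and 58 with BPS. Every BPS library was thus lower than every DMSO library, by a small margin. The log2 fold change was -0.07 (SE 0.02, 95% interval -0.106 to -0.026), with an adjusted p of 0.0647 by edgeR, which missed the threshold, and 0.0366 to 0.148 over the alternatives.

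The other GINS subunits were not called either, and their groups overlapped. Gins1 and Gins2 had log2 fold changes of 0.012 (SE 0.044) and -0.004 (SE 0.031). Gins3 had -0.07 (SE 0.05) on 420 to 536 counts per library, with groups that overlapped (edgeR adjusted p = 0.514). Cdc45, which with GINS and MCM forms the moving helicase, stood at 38.5 ± 0.638 CPM with DMSO and 37.6 ± 2.31 with BPS (SD, 5 libraries each). Mcm10, needed to start the loaded helicase, stood at 25.9 ± 1.57 and 25.7 ± 1.31 CPM.

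Primase and polymerase genes had 4 of 6 log2 fold changes below 0 and none was called (median -0.04). Prim1, the catalytic subunit of primase, had the smallest p of the role. It had 39.3, 39.2, 41.6, 40.2 and 39.9 CPM with DMSO and 38.3, 38.9, 38.9, 39.6 and 38.1 with BPS. BPS replicate 4 lay inside the DMSO range and the other BPS libraries lay just below it. The log2 fold change was -0.05 (SE 0.02, edgeR adjusted p = 0.325). Prim2, the large primase subunit, had nearly the same value, -0.05 (SE 0.02, edgeR adjusted p = 0.342).

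Pola1 and Pola2, subunits of the polymerase alpha that extends the primer, had log2 fold changes of -0.05 (SE 0.03) and 0.02 (SE 0.03). Pold1, the catalytic subunit of the lagging-strand polymerase delta, had 0.01 (SE 0.03), and Pole, that of the leading-strand polymerase epsilon, had -0.04 (SE 0.03). The value of Pole depended on the transcripts that were summed: with curated RefSeq transcripts alone, which held 90.7% of its counts, it was 0.031, with an adjusted p of 0.862 by edgeR.

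The sliding clamp and its loader showed no called difference (4 of 6 log2 fold changes below 0, median -0.033). Pcna, the clamp that holds polymerases on DNA and a common marker of proliferating cells, had 209.9, 218.2, 215.8, 212.4 and 220.3 CPM with DMSO. With BPS it had 209.1, 223.8, 212.5, 218.9 and 218.6 CPM. The DMSO range lay inside the BPS range, and the 95% interval of the log2 fold change was -0.038 to 0.054. Rfc5, a small subunit of the clamp loader, had the smallest p of the role. It had 52.9, 53.3, 51.8, 51.2 and 52.7 CPM with DMSO and 50.8, 52.7, 50.5, 50.6 and 51.3 with BPS, a log2 fold change of -0.03 (SE 0.02, edgeR adjusted p = 0.445). BPS replicates 2 and 5 lay inside the DMSO range. Rfc1 (the large subunit), Rfc2, Rfc3 and Rfc4 had log2 fold changes of -0.03, -0.04, 0.01 and -0.05.

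Among the genes for single-strand binding and flap processing, Lig1, the ligase that seals Okazaki fragments, had the lowest log2 fold change of the 40. It had 104.8, 109.9, 107.8, 104.2 and 111.1 CPM with DMSO and 99, 105.2, 102.8, 100.8 and 101.5 with BPS. BPS replicate 2 lay inside the DMSO range and the other 4 BPS libraries lay below it. The log2 fold change was -0.08 (SE 0.02, 95% interval -0.13 to -0.027), with an adjusted p of 0.0817 by edgeR and 0.0351 to 0.18 over the alternatives. Fen1, the flap nuclease that acts just before the ligase, had -0.007 (SE 0.033). Rpa1 and Rpa2, subunits of the single-strand binding protein RPA, had 0.007 (SE 0.032) and 0.01 (SE 0.029).

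The nucleotide supply genes had the narrowest intervals of the 7 roles by the median, and none was called. Rrm1, the large subunit of ribonucleotide reductase, was the gene with the most counts of the 40, 12257 to 14345 per library. It stood at 349.8 ± 9.47 CPM with DMSO and 350.1 ± 6.21 with BPS (SD, 5 libraries each), and its 95% interval was -0.044 to 0.046. Rrm2, the small subunit made in S phase, stood at 143 ± 3.73 and 144.1 ± 2.58 CPM. Tyms, thymidylate synthase, stood at 84.3 ± 2.26 and 83.7 ± 1.92 CPM. Tk1, thymidine kinase of the cytosol, had the smallest p of the role. It had 91.9, 94.9, 95.8, 92.4 and 98.1 CPM with DMSO and 97.1, 94.5, 93.2, 91.7 and 85.3 with BPS (log2 fold change -0.03, SE 0.03, edgeR adjusted p = 0.634). BPS replicate 5 was the lowest library and the other BPS libraries lay in or close to the DMSO range.

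The regulators E2f1, Ccne1, Ccne2 and Uhrf1 had log2 fold changes between 0.0 and 0.06, and none was called (median 0.04). E2f1, the activator E2F that is itself an E2F target, had 45.7, 49.2, 49.2, 49.8 and 49.6 CPM with DMSO and 48.5, 52.9, 51, 49.1 and 50.7 with BPS. DMSO replicate 1 was low and the groups overlapped (log2 fold change 0.05, SE 0.03, edgeR adjusted p = 0.43). Ccne1, cyclin E1, stood at 31.9 ± 1.06 CPM with DMSO and 31.9 ± 1.86 with BPS (SD, 5 libraries each). Ccne2, cyclin E2, stood at 37 ± 2.04 and 38.5 ± 2.77 CPM. Uhrf1, which brings the maintenance methyltransferase to newly copied DNA, stood at 118.8 ± 3.56 and 122 ± 3.98 CPM.

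Split by the E2F word, the 13 genes with a word had a median log2 fold change of 0.026 (from -0.079 to 0.079) and the 19 with a window and no word had -0.007 (from -0.051 to 0.097). E2f1, itself an E2F target, is among the 19, so the lack of a word does not show that a gene is no E2F target. No test was made of this split.

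**Figure D2:**
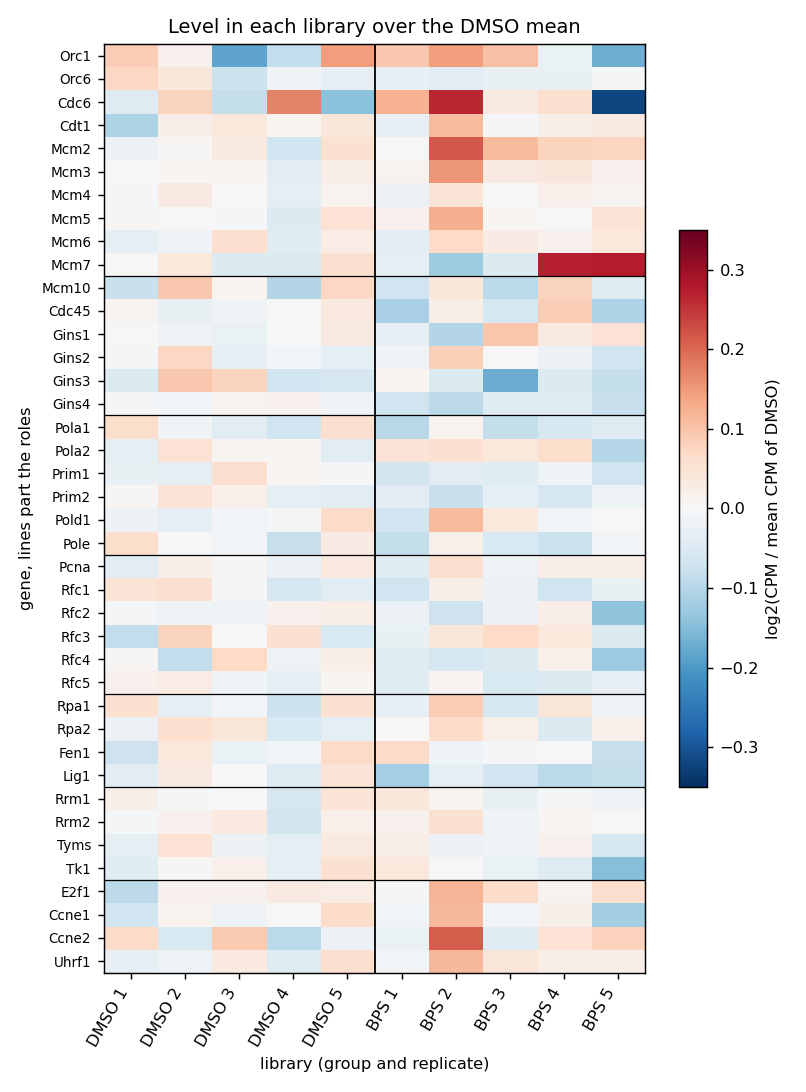
Level of each of the 40 genes (rows, grouped by role) in each of the 10 libraries (columns), as log2 of CPM over the mean CPM of the DMSO libraries. BPS replicate 2 holds the highest BPS value in 23 of the 40 genes, and Mcm7 is high in BPS replicates 4 and 5.

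Within the groups, certain libraries were often the highest or the lowest. BPS replicate 2 was the highest BPS library in 23 of the 40 genes (57.5%), against 21.8% of all tested genes. DMSO replicate 4 was the lowest DMSO library in 19 (47.5%, against 21.2%) and DMSO replicate 5 the highest in 17 (42.5%, against 19.9%). BPS replicate 2 also had the lowest TMM scaling factor, 0.9854. The other BPS libraries had 0.9948 to 1.0035 and the DMSO libraries 1.0017 to 1.0077. BPS replicates 2 to 5 thus lay below every DMSO library and BPS replicate 1 did not. The part of scaling in the order of BPS replicate 2 was not tested. Without BPS replicate 2, edgeR called 0 of the 40 genes and their median log2 fold change was -0.009. Their log2 fold changes then ran from -0.091 to 0.125.

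Levels differed far more between genes than between groups. Per kilobase of transcript, with lengths from GENCODE M21, Pcna was the highest at 141.8 CPM per kilobase in DMSO, followed by Rrm1 (87.5), Mcm6 (69.3), Tk1 (65.7) and Rrm2 (65.2). The lowest were Cdc6 (0.828), Orc1 (2.68), Gins3 (5.1) and Mcm10 (7.29). The products of the 6 MCM2-7 genes form a ring with equal shares, but Mcm6 stood at 69.3 CPM per kilobase and the other 5 lay between 29.9 and 38, with a length for Mcm5 that rests on few counts. In GINS, also a complex of equal shares, Gins4 stood at 45.5 and the other 3 between 5.1 and 11.4 CPM per kilobase. The gap to Gins2 rests largely on length, 1349 bases for Gins4 and 3900 for Gins2. Before division by length, the DMSO means were 61.4 CPM for Gins4, 44.6 for Gins2, 12.8 for Gins3 and 10.8 for Gins1. The 5 clamp loader genes lay between 12.2 and 21.9 CPM per kilobase. In BPS the levels per kilobase were 142.7 for Pcna, 70.4 for Mcm6 and 43.5 for Gins4.

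**Figure D3:**
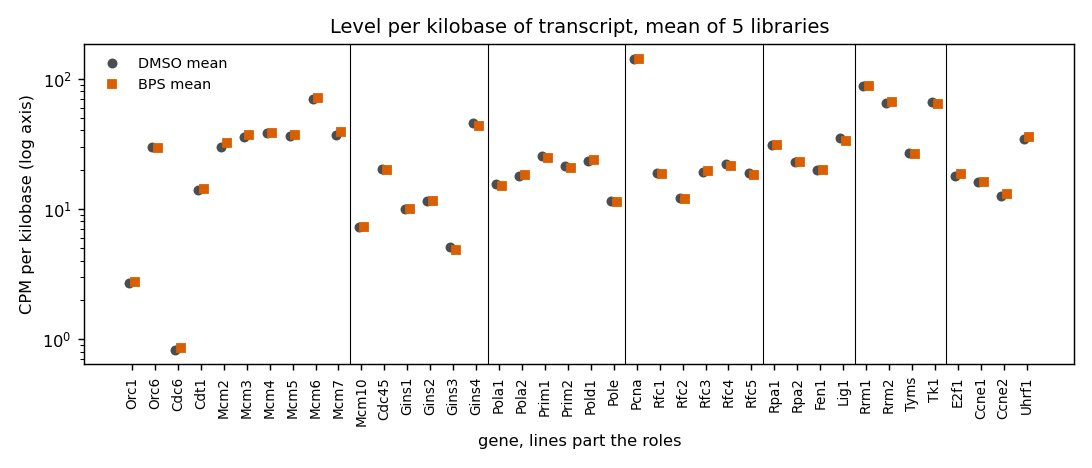
Mean level of each gene in CPM per kilobase of transcript (log axis) in 5 DMSO libraries (circles) and 5 BPS libraries (squares), by role. Circle and square nearly coincide for every gene, while the genes range from 0.828 (Cdc6) to 141.8 (Pcna) in DMSO.

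For most of the genes a single curated transcript held nearly all counts, but 10 of the 40 had a leading transcript under 90%. In Mcm5 a predicted non-coding model took 81.6 to 85.5% of the counts in DMSO and 81.2 to 84.5% in BPS. The length used for Mcm5 therefore rests on transcripts with 16.8% of its counts, and that of Ccne2 on 8.2%. With curated transcripts alone, Mcm5 had a log2 fold change of 0.13 (adjusted p = 0.492) and Ccne2 of 0.12 (adjusted p = 0.926), both by edgeR. In Cdc45 the leading transcript took 52.8 to 64.1% in DMSO and 52.9 to 60.1% in BPS, and in E2f1 51.9 to 63.7% and 50.4 to 65.6%. The shares overlapped between the groups in these genes. They rest on how the authors' program split shared reads and were not tested. A processed pseudogene of Tyms had 2 to 6 counts per library, against at least 2894 for Tyms.

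Other genes of replication and S phase were also without a call. Of 46 such genes, all were tested and 0 were called by edgeR, against 4.88% of all tested genes. At an unadjusted p under 0.05 there were 7 (1 higher, 6 lower), or 15.2% against 18.8% of all tested genes, and the median of their log2 fold changes was -0.02. DESeq2 called 1 and limma-voom 0. Of the 46 log2 fold changes, 30 lay below 0 and 16 above. The smallest adjusted p belonged to Dctd, deoxycytidylate deaminase, the 1 higher gene of the 7 named by unadjusted p. Dctd stood at 24.6 ± 0.545 CPM with DMSO and 26.8 ± 1.05 with BPS (SD, 5 libraries each, edgeR adjusted p = 0.0513). The 6 lower genes had log2 fold changes of -0.127 (Dbf4), -0.117 (Cdc7), -0.091 (Clspn), -0.081 (Asf1b), -0.065 (Mtbp) and -0.063 (Orc3). Their adjusted p ran from 0.0857 to 0.172 by edgeR. These genes and Dctd are named outside the rule for naming. The count of called genes was 2 without BPS replicate 1 and 1 without DMSO replicate 4.

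Among genes that control the G1/S step, some rose and some fell. Of 29 such genes, edgeR called 3 higher and 3 lower (20.7% in all), against 3.06% higher and 1.82% lower (4.88% in all) of all tested genes. The median log2 fold change of the list was 0.02. With exact version matching or with curated transcripts only, 3 of these genes were called, and with limma-voom or the replicate block 4. Ccnd2, cyclin D2, had 614.9, 581.1, 603.9, 569.4 and 600.4 CPM with DMSO and 659.4, 676.1, 641.3, 680.7 and 673.2 with BPS. Every BPS library was higher than every DMSO library, a rise of 0.17 on the log2 scale (SE 0.02, edgeR adjusted p = 0.00235). Ccnd1, cyclin D1, rose from 303.3 ± 19.5 to 349.5 ± 16.6 CPM (SD, 5 libraries each; log2 fold change 0.21, SE 0.04, edgeR adjusted p = 0.0214).

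The groups of Ccnd1 overlapped, at 329.1 and 329.9 CPM. The genes that fell were Rbl2, the retinoblastoma relative p130, and the INK4 inhibitors Cdkn2c and Cdkn2d, which block the cyclin D kinases. Their log2 fold changes were -0.13 in each case, with adjusted p of 0.0153, 0.0251 and 0.047 by edgeR. Cdkn1a, the p53 target p21, rose by 0.15 (edgeR adjusted p = 0.0497); it is named as the last of the 6 called, outside the rule for naming. Without DMSO replicates 2, 3 or 5, or BPS replicates 2, 3 or 4, the count of called genes was 2 or 3 in place of 6. Without DMSO replicates 1 or 4 or BPS replicates 1 or 5 it was 4 or 5.

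Of the mitotic genes, which a cell reads after the replication genes, 9 of 31 fell and none rose. By direction, edgeR called 0 higher and 9 lower (29%), against 3.06% and 1.82% of all tested genes. Of the 31 log2 fold changes, 30 lay below 0, and the median was -0.14. The count of 9 became 18 with the DESeq2 Wald test, 5 with the replicate block, 4 with exact version matching and 3 with curated transcripts only. Mki67, the marker protein of cycling cells, had 659.5, 680.9, 611.6, 617.6 and 646 CPM with DMSO and 597.6, 531, 571.6, 579.2 and 531.6 with BPS, with no overlap (log2 fold change -0.19, SE 0.04, edgeR adjusted p = 0.0155). Nusap1, a spindle protein, fell from 69.9 ± 2.71 to 58.5 ± 2.81 CPM (SD, 5 libraries each; log2 fold change -0.26, SE 0.04, edgeR adjusted p = 0.00226).

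Bub1b, a spindle checkpoint kinase, Prc1, which bundles spindle microtubules, and Top2a, which untangles chromosomes, fell by 0.19, 0.16 and 0.14 on the log2 scale (adjusted p 0.0156, 0.0175 and 0.0236 by edgeR). Mybl2, which is itself read from G1/S onward, was the 1 gene of the 31 above 0 (0.05, SE 0.03). BPS replicate 1 was the highest BPS library in 27 of the 31 mitotic genes; without it 22 of them were called. Without DMSO replicate 1, 2 or 5, or BPS replicate 2 or 3, the count was 4, without BPS replicate 5 it was 5, and without DMSO replicate 4 it was 6. Among the replication genes BPS replicate 1 was the highest BPS library in 5 of the 40 (12.5%), against 87.1% of the mitotic genes and 21.8% of all tested genes. Of the DMSO libraries, replicate 5 was most often the highest in both lists (42.5% and 48.4%). DMSO replicate 4 was the lowest in 47.5% of the replication genes and 35.5% of the mitotic genes. DMSO replicate 3 was the lowest in 10% of the replication genes and 58.1% of the mitotic genes. DMSO replicate 1 was the highest in 10% and 38.7%, and DMSO replicate 2 in 27.5% and 3.23%. Of the 40 intervals for replication genes, 38 did not hold the median of the mitotic genes and 2 did, those of Cdc6 and Gins3. Among the 46 other replication and S-phase genes, 11 intervals held that median. The difference between the lists was not tested.

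**Figure D4:**
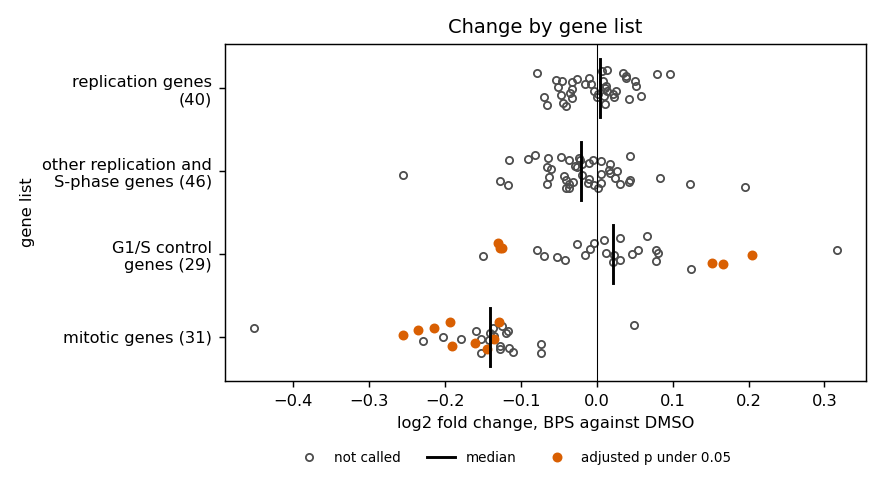
Log2 fold change of BPS against DMSO for each gene of 4 lists (1 point a gene, vertical scatter for display only), with filled points for genes with an adjusted p under 0.05 and a bar at the median. The replication genes centre on 0.004 with no filled point, and the mitotic genes centre on -0.14 with 9.

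The levels were also summed over each list in each library. The 40 replication genes summed to 3142, 3173, 3166, 3069 and 3219 CPM with DMSO and to 3113, 3253, 3131, 3179 and 3144 with BPS. The ranges overlapped; DMSO replicate 4 lay below every BPS library and BPS replicate 2 above every DMSO library. The 31 mitotic genes summed to 5203, 5051, 4873, 4923 and 5193 CPM with DMSO and to 4909, 4356, 4459, 4706 and 4323 with BPS. Here BPS replicate 1 lay in the DMSO range and the other BPS libraries below it. The ratio of the sums, replication over mitotic, was 0.604 to 0.65 in DMSO and 0.634 to 0.747 in BPS, with BPS replicate 1 the lowest of BPS. The sums were not tested. In bulk RNA, fewer cells in a phase and less RNA per cell in that phase cannot be told apart.

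**Figure D5:**
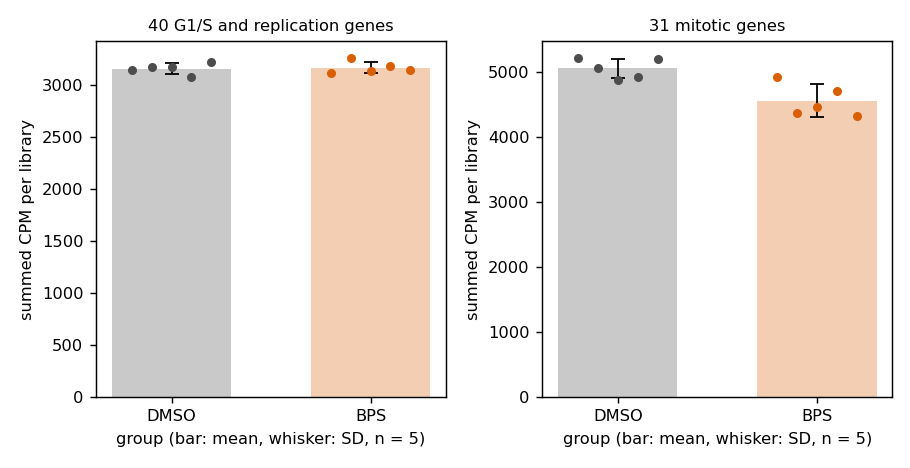
Summed CPM per library (points) of the 40 replication genes and the 31 mitotic genes in DMSO and BPS, with bars for the mean and whiskers for the SD (n = 5 each). Replication genes sum to 3069 to 3253 CPM in all 10 libraries, and mitotic genes to 4873 to 5203 in DMSO and 4323 to 4909 in BPS.

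Total estimated counts per library were 37920689 to 42717227, and an exact two-sided permutation test of the group means gave p = 0.452 (n = 5 each). Replicate libraries differed by 4.13 to 8.77 times sampling noise, so none was a copy of another. Pdgfra, a defining receptor of preadipocytes, stood at 833.2 to 925.5 CPM. The 9 preadipocyte markers summed to 2260 to 2281 CPM with DMSO and 2147 to 2274 with BPS. Of the 9, 1 was called, Cd34, which rose from 45.2 to 54.9 CPM (log2 fold change 0.28, edgeR adjusted p = 0.00043). The 4 adipocyte markers summed to at most 0.203 CPM, with Lep at 0 counts in every library. The macrophage marker Csf1r and the lymphocyte markers Cd3e and Cd2 were also at 0 counts. The 5 mural markers summed to 56.3 to 61.6 CPM with DMSO and 61.9 to 70.6 with BPS (1 of 5 called, Cspg4). The 5 mesothelial markers summed to 9.06 to 11.02 CPM with DMSO and 10.99 to 12.9 with BPS, ranges that just overlapped, with Msln and Upk3b at 0 counts. Of the 2 mesothelial markers tested, Krt19 was called (log2 fold change 0.27). Wt1 went the other way and was not called (log2 fold change -0.59, SE 0.22, edgeR adjusted p = 0.155). The 5 endothelial markers (17.3 to 22.7 and 16.7 to 22.5 CPM), the 6 macrophage markers (4.72 to 7.26 and 5.12 to 6.61 CPM), and the 4 epithelial markers (0.178 to 0.435 and 0.217 to 0.395 CPM) overlapped, as did the 4 lymphocyte markers (0.136 to 0.223 and 0.083 to 0.282 CPM). The part of other cells in the results was not tested.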

How the data were processed

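The authors deposited estimated counts per RefSeq transcript for 10 libraries, made with kallisto 0.42.4 per the submitters' processing notes, with no scaling to a common depth. Index, build and strand setting are not given in the sources used here. The 107384 transcripts were matched to genes by accession without version (RefSeq gene table of GRCm38.p6, names only), which placed 86722 transcripts and 93.1% of the counts. The deposited estimated counts were summed per gene and rounded. The 20662 unmatched transcripts (6.9% of counts) were not tested.

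Genes passed filterByExpr, libraries were scaled by TMM, and BPS was tested against DMSO with edgeR's quasi-likelihood test without covariates (Benjamini-Hochberg over 14597 genes, threshold 0.05). The standard error is the unshrunken log2 fold change over the square root of F, and 95% intervals use the test's degrees of freedom. CPM uses TMM-scaled library sizes, taken over the tested genes. Code was tested on simulated data.

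The 40 genes, the other lists and the tests were chosen with earlier results of these data known. Values in every library were given, among the 40 genes, for any called (there were none), for the gene of each role with the smallest p, and, added after their values were seen, for Pcna and Mcm7; other lists name up to 5 called genes with the smallest p, with values in every library for Ccnd2 and Mki67 only, a choice made after their values were seen. Labels and headers gave no batch. Tests ran in R 4.3.3 with DESeq2 1.42.0, limma 3.58.1 and edgeR 4.0.16; tables used scipy 1.17.1, numpy 2.4.6 and pandas 2.3.3 under Python 3.11.15.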

Additional observations from a re-analysis of the deposited data

Results flagged for a closer look

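In 6 of 80 groups of 5 values (40 genes in DMSO and BPS), the gap from 1 library to its nearest neighbour passed Dixon's 95% critical value, as a share of the range. Chance gives about 4 such groups in 80. These were Cdt1 in DMSO replicate 1 (28.1 CPM, the others 30.5 to 31.1), E2f1 in DMSO replicate 1 (45.7 CPM, the others 49.2 to 49.8) and Gins2 in DMSO replicate 2 (46.9 CPM, the others 43.7 to 44.4). The others were Pold1 in DMSO replicate 5 (84.5 CPM, the others 78.9 to 80.4), Mcm3 in BPS replicate 2 (120.3 CPM, the others 109 to 111.1) and Pola2 in BPS replicate 5 (40.6 CPM, the others 44.6 to 45.3). None of these 6 genes was called by edgeR with or without any single library.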

How the results depend on the processing

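Of the 40 replication genes, 0 were called as reported, in each of the 10 fits that left out 1 library (0 to 0), and with DESeq2 size factors, upper-quartile scaling, no filter, the CPM filter, limma-voom, the replicate block, exact version matching (35 genes tested) and curated transcripts only. The count was 2 with library size alone, which moves the median of all genes to -0.014, and 1 with the DESeq2 Wald test. Mitotic genes called were 9, but 18 with DESeq2, 5 with the replicate block, 4 with exact version matching and 3 with curated transcripts, and 4 to 22 without single libraries. The other settings called 8 to 10 mitotic genes. G1/S control genes called were 6, but 3 with exact version matching, 3 with curated transcripts, and 2 to 5 without single libraries. They were 4 with limma-voom, the replicate block or no filter. They were 5 with DESeq2 size factors, library size alone or upper-quartile scaling. Other replication genes called were 0, but 1 each with upper-quartile scaling, the CPM filter and DESeq2, and 0 to 2 without single libraries. All genes called were 712, but 374 with the replicate block, 328 with exact version matching (11761 tested) and 311 with curated transcripts. This count was 952 with the DESeq2 Wald test, 550 with no filter (24812 tested), and 449 to 774 without single libraries. The other settings called 688 to 758. The cause of these differences between settings was not tested. The labels do not say whether replicate numbers pair the libraries. Same-numbered libraries correlated at 0.1, 0.004, -0.067, 0.072 and -0.078 in their deviations. Of the DMSO libraries, 2 of 5 correlated best with their own number. So few values cannot decide whether same-numbered libraries were paired. The block changed the call of no replication gene. Intervals cover these libraries only, and Cdc6, with 108 to 162 counts per library, is the gene that depth limits most.

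The sign of the log2 fold change turned in 63 of 795 refitted values of the 40 genes, in 18 genes, none of which was called in either fit; the largest value after a turn was 0.031. With size factors of DESeq2 these values were -0.00064 (Rrm1) and -0.0016 (Ccne1). With library size alone these values were -0.0035 (Mcm4), -0.0028 (Gins1), -0.0010 (Pold1), -0.0068 (Pcna), -0.00091 (Rfc3), -0.0076 (Rpa1), -0.0043 (Rpa2), -0.014 (Rrm1), -0.0035 (Rrm2) and -0.015 (Ccne1). With upper-quartile scaling it was 0.00032 (Gins2). With no filter these values were -0.00067 (Rrm1) and -0.0016 (Ccne1). With the CPM filter it was -1.87e-05 (Ccne1). With the DESeq2 Wald test these values were -0.00056 (Rrm1) and -0.0016 (Ccne1). With limma-voom it was -0.0015 (Ccne1). With the replicate block it was -0.00029 (Ccne1). With exact version matching these values were -0.0027 (Orc1), -0.0030 (Rrm1) and -0.0038 (Ccne1). With curated transcripts only these values were -0.0051 (Orc1), -0.00013 (Gins1), 0.031 (Pole), -0.0024 (Rpa1), -0.0054 (Rrm1) and -0.0062 (Ccne1). Without single libraries the log2 fold changes ran from -0.029 to 0.029 (Ccne1), -0.017 to 0.12 (Cdc6), -0.00078 to 0.039 (Cdt1), -0.026 to 0.011 (Fen1), -0.010 to 0.038 (Gins1), -0.026 to 0.015 (Gins2), -0.042 to 0.0083 (Mcm10), -0.0080 to 0.082 (Orc1), -0.0040 to 0.021 (Pcna), -0.011 to 0.035 (Pold1), -0.0069 to 0.034 (Rfc3), -0.014 to 0.023 (Rpa1), -0.0036 to 0.025 (Rpa2), -0.015 to 0.013 (Rrm1), -0.0053 to 0.020 (Rrm2) and -0.019 to 0.0027 (Tyms).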
